A study of Homo sapiens with 15 samples.

Results

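The comparison described here asks what changed in renal epithelial cultures on spider silk when fibroblasts were added. The silk co-cultures held RPTEC/TERT1 cells, an immortalized line of human proximal tubule epithelium, grown together with fHDF/TERT166, immortalized dermal fibroblasts of human origin, on an LN/FN-silk membrane made with recombinant spider silk. The silk monocultures held RPTEC/TERT1 cells alone on the same membrane. The members were chosen by their labels, which gave 3 silk co-cultures and 3 silk monocultures, 6 of the 15 libraries of the series. The other libraries were 3 co-cultures and 3 RPTEC/TERT1 monocultures on LN/PC membranes, used here for the shared estimate of spread and for a comparison between membranes, and 3 monocultures of fHDF/TERT166 cells, used as the profile of the fibroblasts. LN, FN and PC are written as in the labels, which do not spell them out.

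All cultures had the same age, 14 days after seeding, and all RPTEC/TERT1 cultures had the same medium, with 5 mM glucose, insulin, epidermal growth factor and hydrocortisone. In co-cultures the fibroblasts were seeded 30 minutes before the epithelium at 14000 cells per cm2, against 140000 epithelial cells per cm2, so they were 9.09% of the cells put in. RNA came from scraped silk membranes, from LN/PC membranes excised with a blade, and, for fibroblast monocultures, from cells scraped off the well. Each sample pooled 3 to 8 membranes. Each cell type came from 1 immortalized line, and the fibroblasts were dermal, not renal. Whether replicates came from independent cultures is not given in the labels; the p-values therefore cover only the spread among these samples, some of which may be technical.

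Proximal tubule cells reabsorb most of the filtered glucose, amino acids and phosphate, and in the kidney they lie on a basement membrane next to interstitial fibroblasts. Cells that receive less oxygen stabilize the transcription factor HIF, which raises genes of glucose uptake, glycolysis, matrix crosslinking and vessel growth. Misfolded proteins in the endoplasmic reticulum raise its chaperones through the unfolded protein response, and misfolded cytosolic proteins raise heat shock genes through HSF1. Differentiated tubule cells divide little.

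Expression is given as normalized counts, the deposited values turned back to a linear scale. In units of 1e+06 normalized counts, silk co-cultures totalled 10.2 ± 0.131 and silk monocultures 9.26 ± 0.0641 (SD, n = 3 each). The exact permutation test, two-sided, gave p = 0.1, the lowest value possible for 3 against 3. In the same unit, the spacing of low values put the reads at about 10.2 to 11.2 per silk co-culture and 8.82 to 12.4 per silk monoculture. Transcripts of the mitochondrial genome made up 5.97 ± 0.501% in silk co-cultures and 5.16 ± 1.25% in silk monocultures (exact permutation p = 0.4). On the first principal component of the 6 silk libraries, with 42.8% of the variance, the co-cultures lay at 25.3 to 38.1 and the monocultures at -42.5 to -17.1. Silk monoculture 1 stood apart from the other silk libraries on the second component (45.9, against -27.1 to -2.00 for the rest; 21.2% of the variance).

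Among the gene lists examined, the hypoxia response and the unfolded protein and integrated stress list had the most members called higher in silk co-cultures (19 of 36 and 14 of 37), and cell proliferation the most called lower (12 of 49). Of 14433 genes tested, 545 (3.78%) were called at an adjusted p under 0.05 by limma with Benjamini-Hochberg adjustment. Among them 420 (2.91%) were higher and 125 (0.866%) lower in silk co-cultures, and 226 and 74 of these changed at least 2-fold. The shares of 2.91% and 0.866% are the background for every list count below. An unadjusted p under 0.05 was reached by 2449 genes. The libraries did not overlap for 418 of the 420 genes called higher and 124 of the 125 called lower. Over all tested genes, 14.7% were without overlap and higher, and 12.4% without overlap and lower. The share of calls that were higher was 77.1% as deposited, 66.1% after scaling to the upper quartile and 88.8% after scaling on epithelium-restricted genes. Single libraries mattered for the count, which was 208 without silk co-culture 3, 308 without silk monoculture 2, 312 without silk co-culture 1, 323 without silk co-culture 2, 340 without silk monoculture 3 and 819 without LN/PC monoculture 2. The genes are placed by level and change in the plot of change against level.

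**Figure D1:**
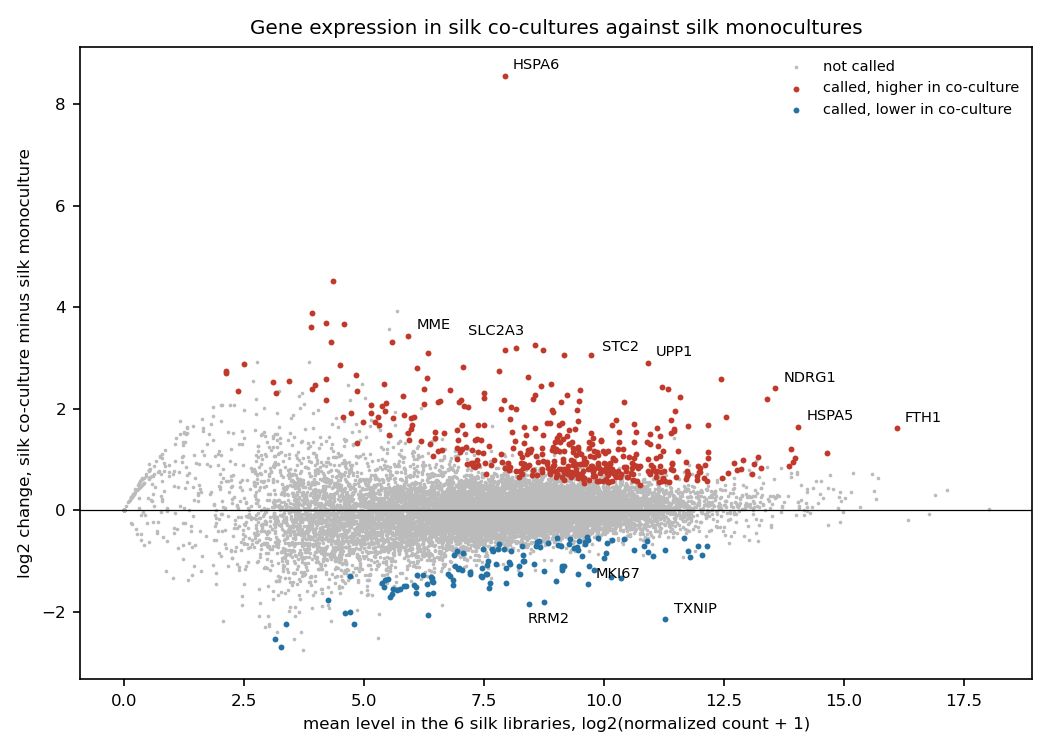
Each point is 1 of 14433 tested genes, by its mean level in the 6 silk libraries, log2(normalized count + 1), on the x axis and its log2 change, silk co-culture minus silk monoculture, on the y axis. The 420 genes called higher are red and the 125 called lower are blue; HSPA6 has the highest change (8.57) and TXNIP is the lowest of the labelled genes (-2.16).

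Very little fibroblast RNA was present in the silk co-cultures. Over 112 genes restricted to fibroblasts, the median share of fibroblast RNA was 0.0239%, 0% and 0.113% in the 3 silk co-cultures (mean 0.0457 ± 0.0597%, SD) and 0% in each silk monoculture (exact permutation p = 0.4). Without silk co-culture 3 the mean was 0.0119%. Summed over the same genes, the share was 0.118 ± 0.0567% in silk co-cultures, above every monoculture (exact permutation p = 0.1, the smallest possible). These genes were chosen partly for low levels in the silk monocultures. The p-values for the share are therefore given as a description only. In bulk RNA, fewer cells of a type and less RNA per cell cannot be told apart. The LN/PC co-cultures, by contrast, held 13.0 ± 2.80% by the median and 20.9 ± 5.81% by the sum.

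Traces of some defining fibroblast genes could still be read in single silk co-cultures. COL3A1, a fibrillar collagen gene at 109350 normalized counts in fibroblasts, had 44.3, 0 and 39.5 in silk co-cultures and was at 0 in every silk monoculture. TIMP3, a metalloproteinase inhibitor bound to the matrix, had 28.9, 0.918 and 55.6 in silk co-cultures and was also at 0 in every monoculture. Against a floor of 3 reads per library, the 2 genes were at least 10.0-fold and 10.2-fold higher in silk co-cultures. Silk co-culture 2 carried next to none of either transcript.

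COL1A2 had 80.3, 4.75 and 194 in silk co-cultures, against 0, 0 and 25.1 in silk monocultures. It did not pass the test (limma adjusted p = 0.0637), and neither did COL1A1 (adjusted p = 0.265) or COL6A3 (adjusted p = 0.0869). POSTN, at 4299 in fibroblasts, was at 0 in all 6 silk libraries. DCN, at 57959 in fibroblasts, had 68.9, 84.4 and 75.6 in silk co-cultures and 56.7, 60.8 and 111 in silk monocultures. PDGFRB had 1.01, 0.356 and 4.24 in silk co-cultures, against 15.8, 5.16 and 9.73 in silk monocultures (log2 change -2.09, limma adjusted p = 0.0682). Of 34 fibroblast markers tested, 5 were called higher (COL3A1, COL5A1, PDGFRA, LOX and SPARC) and 0 lower. Their changes were above 0 for 23 and below 0 for 7. The whole marker list summed to 18073 to 21248 in silk co-cultures, 12282 to 17460 in silk monocultures and 1.38e+06 to 1.56e+06 in fibroblasts. The mean sums on silk were 19348 and 15317, of which LOX, also on the hypoxia list, made up 4172 and 1226. The part of fibroblast RNA in that rise was not tested. The calls of the fibroblast list numbered 2 after subtracting the estimated fibroblast contribution, and 3 without silk co-culture 3 or LN/PC co-culture 1, with the 6 silk libraries alone, with a pseudocount of 10, on the deposited log2 values or without a trend in the spread. Of 17 tested contractile genes, 0 were called by limma and 2 had an unadjusted p under 0.05. Their median change was 0.10, with 10 changes above 0 and 7 below. The sum over all 18 measured contractile genes was 69469 to 75389 in silk co-cultures and 53814 to 64903 in silk monocultures, without overlap. The part of this sum in the results was not tested. CD68, a lysosomal protein used as a macrophage marker, had 757, 784 and 885 in silk co-cultures and 196, 174 and 85.8 in silk monocultures (log2 change 2.49 ± 0.27, SE), and 546 in fibroblasts. The calls of COL3A1 and TIMP3 were lost without any 1 of silk co-cultures 1 and 3 and silk monocultures 2 and 3 (limma adjusted p up to 0.257 and 0.102), and that of COL3A1 also without silk monoculture 1, LN/PC monoculture 1 or any LN/PC co-culture. That of PDGFRA was lost without silk co-culture 2 or 3, silk monoculture 2 or LN/PC co-culture 1 (up to 0.177).

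For most genes called higher, the excess over the silk monocultures was large beside the level in fibroblasts. Of the 420, the excess was above 1% of the fibroblast level for 412 and above the whole fibroblast level for 208. The remaining 8 were TIMP3, SPARC, OLFML3, NRN1, COL5A1, PDGFRA, DDR2 and COL3A1, whose excess was 0.0255% to 0.891% of the fibroblast level. Fibroblasts had a mean under 10 normalized counts for 58 of the 420 genes and 0 for 24. After subtracting the estimated fibroblast contribution from each library, 385 genes were called, and 383 of these were among the 545.

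The hypoxia response list was the one with the most members called. Of its 36 tested members, 19 were higher in silk co-cultures and 0 lower, with a median log2 change of 1.08, against a median of 0.00 over all tested genes. The libraries did not overlap for 28 of the 36, all of them higher, and 35 of 36 changes were above 0. Over all tested genes, 14.7% lay higher without overlap. The count was 11 without silk co-culture 1 and 12 without silk co-culture 3, at medians of 1.04 and 1.03. Its 2 largest changes were those of SLC2A3 and STC2. To show what lies upstream of these genes, the 250 bases before the start of 3 called members are printed for STC2 (GRCh38.p14, chr5:173328415-173328664, minus strand), HK2 (chr2:74833877-74834126, plus strand) and ANGPTL4 (chr19:8363905-8364154, plus strand), 5′ to 3′ from RefSeq, with matches to the core of the HIF binding motif (ACGTG or GCGTG, either strand; adjacent matches can overlap) in capitals.
STC2: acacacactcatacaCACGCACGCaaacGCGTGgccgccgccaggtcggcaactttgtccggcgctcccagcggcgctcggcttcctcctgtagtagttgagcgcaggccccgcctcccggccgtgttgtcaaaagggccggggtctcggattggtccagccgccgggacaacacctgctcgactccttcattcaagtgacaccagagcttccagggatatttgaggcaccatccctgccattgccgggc
HK2: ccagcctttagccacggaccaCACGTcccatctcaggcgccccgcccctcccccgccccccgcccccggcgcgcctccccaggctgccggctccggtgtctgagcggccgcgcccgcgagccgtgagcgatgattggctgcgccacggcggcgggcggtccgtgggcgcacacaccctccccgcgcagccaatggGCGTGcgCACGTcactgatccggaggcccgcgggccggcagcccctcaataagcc
ANGPTL4: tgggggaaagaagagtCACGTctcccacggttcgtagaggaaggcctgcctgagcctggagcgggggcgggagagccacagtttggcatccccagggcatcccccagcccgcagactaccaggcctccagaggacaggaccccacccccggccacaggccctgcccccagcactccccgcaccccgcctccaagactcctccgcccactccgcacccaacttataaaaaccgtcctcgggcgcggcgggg

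The STC2 window held 3 matches, 235, 231 and 222 bases before the start, and the HK2 window 3, at 229, 55 and 48 bases. The ANGPTL4 window held 1, at 234 bases. Of the 19 members called higher, 13 had a promoter in the table, and 9 of these 13 held the core within 250 bases, against 43.1% of 27305 promoters. The core was also in 13 of the 14 unfolded protein genes called higher and in 6 of the 10 proliferation genes called lower that had a promoter. A match of these few letters is common and is given as a description only.

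SLC2A3 encodes GLUT3, a glucose transporter of high affinity, and had 901, 579 and 569 normalized counts in silk co-cultures, against 56.4, 65.4 and 89.2 in silk monocultures. The change was 3.25 ± 0.24 log2 units (SE; limma adjusted p = 1.04e-06). SLC2A1, the basolateral glucose transporter GLUT1, had 20519, 15466 and 17845 in co-cultures and 3705, 4062 and 3869 in monocultures (2.20 ± 0.19; adjusted p = 3.17e-06). HK2, the hexokinase that traps glucose inside the cell, had 4439, 3475 and 4068 in co-cultures and 517, 963 and 817 in monocultures (2.42 ± 0.19). In all 3 genes every co-culture library lay above every monoculture. Fibroblasts had 163 normalized counts of SLC2A1 and 83.4 of HK2, below every silk library.

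Of 24 tested glycolysis genes, 2 were called higher, HK2 and ENO2, and 0 lower, at a median of 0.22. Of the 24, 19 changes were above 0, and 13 lay higher and 1 lower without overlap, against 14.7% and 12.4% of all tested genes. ENO2, the neuronal form of enolase, had 5027, 4510 and 4177 in silk co-cultures, against 1172, 1241 and 1129 in silk monocultures (1.95 ± 0.15; limma adjusted p = 1.04e-06). GAPDH had 63158 to 66218 in co-cultures and 35647 to 50727 in monocultures and missed the threshold (0.64 ± 0.26; adjusted p = 0.202), as did PGK1 (0.58 ± 0.24; adjusted p = 0.213). LDHA, which makes lactate, had 28710 to 31629 in co-cultures and 23774 to 35984 in monocultures (0.04 ± 0.26).

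TXNIP was lower in silk co-cultures. It encodes an arrestin that lowers glucose uptake, and its transcript is induced by glucose. TXNIP had 1093, 1049 and 638 normalized counts in silk co-cultures and 4658, 4322 and 3230 in silk monocultures, the largest fall among the genes named by size (-2.16 ± 0.24; limma adjusted p = 3.96e-05). DDIT4, an inhibitor of mTORC1 on the hypoxia list, was the list's 1 member with a change below 0 (-0.92 ± 0.29; adjusted p = 0.0975). UPP1, which cleaves uridine to uracil and ribose phosphate, had 3887, 2897 and 3469 in silk co-cultures, against 475, 447 and 433 in silk monocultures (2.91 ± 0.23; adjusted p = 1.58e-06).

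Further called members of the hypoxia list included secreted proteins. STC2, a secreted glycoprotein that inhibits the protease PAPPA, had 1716, 1454 and 1411 in silk co-cultures and 188, 180 and 178 in silk monocultures (3.06 ± 0.25). ANGPTL4, a secreted inhibitor of lipoprotein lipase, had 1089, 876 and 980 in co-cultures, against 96.9, 248 and 348 in monocultures (2.26 ± 0.39; limma adjusted p = 0.00307). LOX, which crosslinks collagen and elastin, had 3736, 4073 and 4705 in co-cultures and 1471, 1028 and 1180 in monocultures (1.77 ± 0.17), and its relative LOXL2 was called higher as well (1.16). NDRG1, a stress gene induced by low oxygen, had 21756, 19393 and 20352 in co-cultures, against 3520, 4385 and 3755 in monocultures (2.40 ± 0.25). In all 4 genes every co-culture library lay above every monoculture library.

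Further members were picked for description after their values were seen. HILPDA, a lipid droplet protein, changed by 2.28 ± 0.29, ERO1A, an oxidase of the endoplasmic reticulum, by 2.23 ± 0.17 and CXCR4, a chemokine receptor, by 1.74 ± 0.36. CA12, a carbonic anhydrase of the cell surface, rose by 1.32 ± 0.26. Its classical HIF-regulated relative CA9 had 348, 261 and 310 in silk co-cultures and 110, 73.9 and 108 in silk monocultures, without overlap. The SE of CA9 came from the fit shared with the LN/PC libraries, and the LN/PC monocultures varied widely, at 0, 55.0 and 13.4. It is therefore not a measure of the spread on silk alone. With that SE, CA9 missed the threshold (1.65 ± 0.91; limma adjusted p = 0.385). VEGFA, the vessel growth factor, had 10294, 11568 and 9494 in co-cultures, against 7579, 5145 and 6566 in monocultures, without overlap, and also missed it (0.71 ± 0.20; adjusted p = 0.0586). ADM was called (2.16 ± 0.54; adjusted p = 0.0338), but silk monoculture 1, at 670, lay above silk co-culture 3, at 576. The call of CA12 was lost without silk co-culture 3 (0.0587) and that of CXCR4 without silk co-culture 1 (0.0558). That of ADM was lost without silk monoculture 2 or 3, silk co-culture 1 or 2, or LN/PC co-culture 1 or 2 (up to 0.164).

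**Figure D2:**
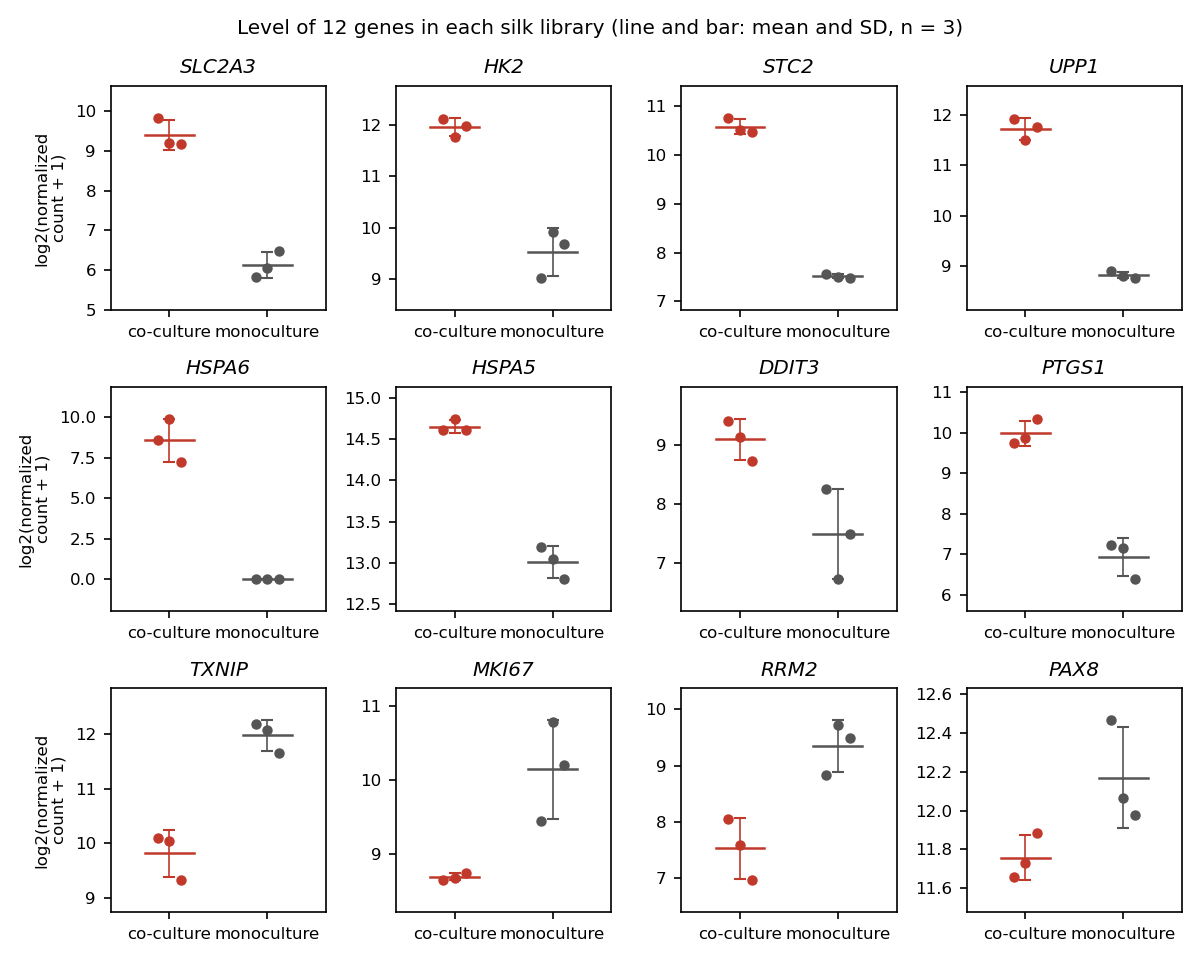
Level of 12 genes in each of the 6 silk libraries, as log2(normalized count + 1) on a scale of its own for each gene; points are libraries, and the line and bar give the mean and SD of the 3 libraries of a group. In 11 genes, from SLC2A3 to RRM2, every co-culture lies on one side of every monoculture and the change was called; for PAX8, also without overlap, the change of -0.41 was not called.

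Of 37 tested genes of the unfolded protein and integrated stress responses, 14 were higher and 1 lower in silk co-cultures and 22 were not called, at a median of 0.43 and with 12 changes below 0. The 14 were HSPA5, DDIT3, PPP1R15A, TRIB3, DNAJB9, MANF, SDF2L1, HSP90B1, HYOU1, SEL1L, DNAJC3, DNAJB11, PDIA4 and PDIA6. The count was 6 without silk co-culture 2 or 3, 7 without silk co-culture 1, and 8 without silk monoculture 2 or 3 or without a trend in the spread.

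HSPA5, the chaperone BiP that holds the stress sensors of the endoplasmic reticulum inactive, had 25014, 27435 and 24933 normalized counts in silk co-cultures, against 9330, 8421 and 7122 in silk monocultures (1.64 ± 0.22; limma adjusted p = 0.000298). DDIT3, the stress transcription factor CHOP, had 683, 566 and 423 in co-cultures and 305, 104 and 178 in monocultures (1.61 ± 0.29). PPP1R15A, the phosphatase subunit GADD34 that reverses the block of translation, had 1228, 1197 and 642 in co-cultures and 488, 282 and 245 in monocultures, and TRIB3, a pseudokinase target of CHOP, changed by 1.59 ± 0.22. Levels of HSPA5 in every co-culture were above the 13478 measured in fibroblasts. MANF, a chaperone-associated protein that is secreted under stress, had 733, 745 and 710 in co-cultures, against 291, 340 and 235 in monocultures (1.35 ± 0.19).

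PSAT1, an enzyme of serine synthesis, was the list's 1 member called lower, with 345, 387 and 260 in silk co-cultures and 1297, 584 and 487 in silk monocultures (-1.13 ± 0.29; limma adjusted p = 0.0387). PHGDH (-0.99 ± 0.31), ASNS (-0.76 ± 0.35) and CHAC1 (-1.54 ± 0.69), picked after their values were seen, did not pass the test, and the transcription factor gene ATF4 changed by 0.10. Among the 6 silk libraries, silk monoculture 1 was the highest for PSAT1, PHGDH, ASNS and CHAC1, at 195 against 18.8 and 23.2 in the other monocultures for CHAC1. The call of PSAT1 was lost without silk monoculture 1 or 2, any silk co-culture, LN/PC monoculture 1 or LN/PC co-culture 1 or 2 (up to 0.207). The calls of HSP90B1 and HYOU1 were lost without any 1 silk library or LN/PC co-culture 1, and that of HYOU1 also without LN/PC co-culture 2 (up to 0.177 and 0.157). That of SDF2L1 was lost without silk monoculture 1 or 3 or any silk co-culture (up to 0.111).

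A few inducible heat shock genes were higher in silk co-cultures. HSPA6, a strictly inducible Hsp70, had 385, 929 and 151 normalized counts in silk co-cultures and was at 0 in every silk monoculture, so it was at least 176-fold higher against a floor of 3 reads per library. It was the largest change of all named genes. Fibroblasts had 0.313, LN/PC co-cultures 0 to 1.84 and LN/PC monocultures 0 to 2.99. HSPA1A, an inducible Hsp70, had 2740, 2745 and 1789 in silk co-cultures, against 893, 1003 and 618 in silk monocultures (1.53 ± 0.20; limma adjusted p = 0.000247). HSPA1B changed by 1.51 ± 0.24, but its near-identical copy HSPA1A may share its reads, so the split between these 2 is uncertain.

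CRYAB, a small heat shock protein, had 189, 140 and 127 in silk co-cultures and 42.6, 33.5 and 26.6 in silk monocultures (2.13 ± 0.37). DNAJB1, a cofactor of Hsp70, changed by 1.03 ± 0.21 and lost its call without silk co-culture 1 (limma adjusted p = 0.0579). These 4 were the ones called among 23 tested cytosolic heat shock genes, with 0 lower and a median of -0.01 (HSPA6 is not on the list). The heat shock genes HSPA8, HSP90AA1 and HSPB1 changed by -0.34 ± 0.27, -0.12 ± 0.22 and -0.01 ± 0.21 and were not called. The windows before HSPA5 (GRCh38.p14, chr9:125241344-125241593, minus strand) and HSPA6 (chr1:161524290-161524539, plus strand) are printed because each gene led its stress group; both were picked after their values were seen. In HSPA5 the capitals mark the fixed letters of the endoplasmic reticulum stress element (CCAAT, 9 bases of any kind and CCACG), and in HSPA6 those of 3 heat shock units (GAA and TTC in turn, with 2 bases of any kind between units), searched on both strands.
HSPA5: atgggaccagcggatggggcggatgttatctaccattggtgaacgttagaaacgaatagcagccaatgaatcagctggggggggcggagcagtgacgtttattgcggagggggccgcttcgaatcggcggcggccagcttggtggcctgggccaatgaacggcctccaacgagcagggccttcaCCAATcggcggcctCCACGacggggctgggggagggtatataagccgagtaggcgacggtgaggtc
HSPA6: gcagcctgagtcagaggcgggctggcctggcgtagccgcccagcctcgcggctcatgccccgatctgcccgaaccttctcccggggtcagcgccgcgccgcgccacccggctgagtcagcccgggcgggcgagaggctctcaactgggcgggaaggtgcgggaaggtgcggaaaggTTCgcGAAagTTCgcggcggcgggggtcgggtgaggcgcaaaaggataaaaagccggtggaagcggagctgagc

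The element of HSPA5 lay 66 bases and that of HSPA6 74 bases before the start. The stress element was in 0.0769% of 27305 promoters and in 2 of the 14 unfolded protein genes called higher. The heat shock units were in 0.447% of all promoters and in 0 of the 3 called heat shock genes of the list with a promoter in the table.

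Among genes of oxidative stress and iron, 3 of 26 tested were called higher and 0 lower, at a median of -0.14. FTH1, the heavy chain of the iron store ferritin, had 100873, 102645 and 114059 normalized counts in silk co-cultures, against 38146, 38878 and 27929 in silk monocultures (1.61 ± 0.29; limma adjusted p = 0.00406). FTH1 alone made up 7.84% of the difference in total counts between the groups. GCLC, which starts glutathione synthesis, changed by 0.92 ± 0.16, while NQO1, a standard target of NRF2, changed by -0.40 and was not called. The third called gene, UGDH (0.80 ± 0.19), lost its call without any 1 of the 6 silk libraries (up to 0.0945).

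**Figure D3:**
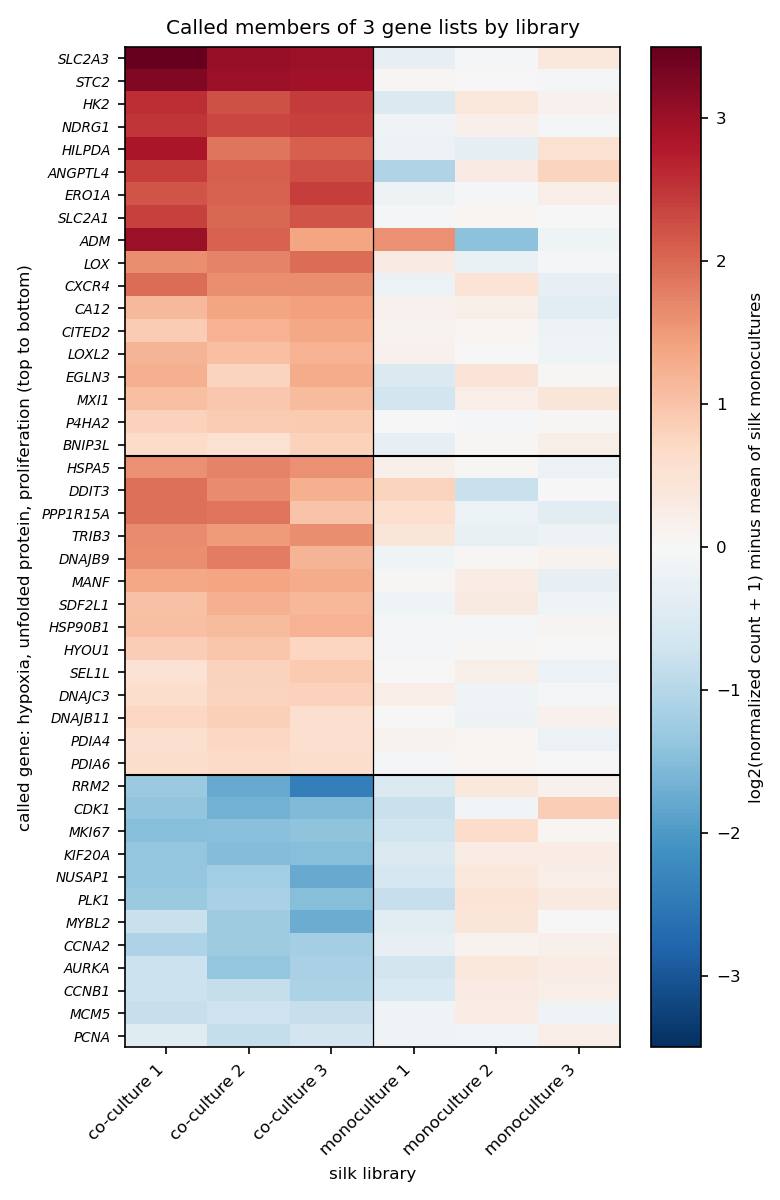
Rows are called members of 3 gene lists, 18 of the 19 of the hypoxia response, 14 of the unfolded protein response and 12 of cell proliferation, and columns are the 6 silk libraries. Colour gives log2(normalized count + 1) minus the mean of the silk monocultures, red above and blue below; among the monocultures, number 1 is the bluest for most proliferation genes, as for MKI67 with 698 against 1756 and 1178 in the others.

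Of 49 tested proliferation genes, 12 were called lower in silk co-cultures, 0 higher and 37 in neither direction, and all 49 changes were below 0, at a median of -0.91. The libraries did not overlap for 30 of them, all lower, against 12.4% of all tested genes without overlap and lower. RRM2, the ribonucleotide reductase subunit that limits the supply of deoxynucleotides, had 263, 192 and 123 normalized counts in silk co-cultures, against 457, 844 and 721 in silk monocultures (-1.82 ± 0.39; limma adjusted p = 0.012). CDK1, the kinase that starts mitosis, had 102, 83.5 and 90.3 in co-cultures and 154, 249 and 486 in monocultures (-1.53 ± 0.36). MKI67, the proliferation marker Ki-67, had 400, 409 and 427 in co-cultures, against 698, 1756 and 1178 in monocultures (-1.45 ± 0.31). KIF20A, a kinesin of cytokinesis, had 110, 98.6 and 100.0 in co-cultures and 196, 337 and 337 in monocultures (-1.44 ± 0.28). In all 4 genes every co-culture lay below every monoculture.

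The monocultures differed among themselves, and silk monoculture 1 was the lowest for each of these 4 genes. Without it 24 proliferation genes were called lower, at a median of -1.28, and without LN/PC monoculture 2 the count was 21. It was 1 without silk monoculture 2 or 3 or silk co-culture 3 and 3 without silk co-culture 2, at medians of -0.94 to -0.80. The count was 7 after scaling on epithelium-restricted genes and 2 without a trend in the spread. After subtracting the fibroblast contribution from the co-cultures of both membranes it was 4, with the median still at -0.91. The calls of RRM2, CDK1 and MKI67 were lost without silk monoculture 2 or 3 or silk co-culture 3 (limma adjusted p up to 0.0943, 0.12 and 0.0871), and those of CDK1 and MKI67 also without silk co-culture 1 or 2. The call of KIF20A held when any 1 of the 12 libraries was left out. Fibroblasts had 221 for RRM2 and 325 for MKI67.

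Promoters of 3 members are printed as those of the list with the most calls lower: RRM2 (GRCh38.p14, chr2:10122318-10122567, plus strand), CDK1 (chr10:60778081-60778330, plus strand) and MKI67 (chr10:128126424-128126673, minus strand). Capitals mark the CCAAT box (CCAAT) and the cell cycle homology region (TTTGAA), the motifs bound by NF-Y and by the complexes that repress cell cycle genes, on either strand.
RRM2: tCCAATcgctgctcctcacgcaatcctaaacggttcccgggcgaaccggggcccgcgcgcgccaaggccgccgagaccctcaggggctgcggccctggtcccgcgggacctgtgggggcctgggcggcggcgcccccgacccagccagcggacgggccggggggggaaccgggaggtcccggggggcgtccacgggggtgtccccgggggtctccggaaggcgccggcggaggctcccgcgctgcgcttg
CDK1: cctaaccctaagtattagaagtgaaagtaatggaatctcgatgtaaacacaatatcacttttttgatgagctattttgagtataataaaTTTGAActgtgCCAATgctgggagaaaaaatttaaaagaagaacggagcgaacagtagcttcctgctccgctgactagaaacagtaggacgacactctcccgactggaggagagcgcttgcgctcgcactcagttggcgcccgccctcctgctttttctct
MKI67: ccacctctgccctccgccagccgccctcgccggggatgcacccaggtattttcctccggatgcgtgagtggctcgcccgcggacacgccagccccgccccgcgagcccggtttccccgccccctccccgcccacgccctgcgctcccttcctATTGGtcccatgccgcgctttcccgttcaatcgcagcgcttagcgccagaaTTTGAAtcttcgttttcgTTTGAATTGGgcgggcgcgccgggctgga

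The MKI67 window held 2 CCAAT boxes, 98 and 24 bases before the start, and 2 homology regions, at 47 and 29 bases; the pair nearest the start overlaps. CDK1 held 1 of each, at 150 and 161 bases, and RRM2 a CCAAT box at 249 bases. Of the 12 members called lower, 10 had a promoter in the table, of which 9 held a CCAAT box, against 33.0% of all promoters, and 3 the homology region, against 13.6%. The CCAAT box was also in 11 of the 14 unfolded protein genes called higher.

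Of 21 tested CDK inhibitors, D cyclins and related genes, 2 were higher, 1 was lower and 18 were not called. CDKN1A, the inhibitor p21, had 1915, 1414 and 1344 normalized counts in silk co-cultures, against 968, 682 and 680 in silk monocultures (1.01 ± 0.18; limma adjusted p = 0.00411). CDKN1C, the inhibitor p57, had 147, 156 and 112 in co-cultures and 310, 322 and 241 in monocultures (-1.07 ± 0.22). GADD45A was the other gene called higher (0.72 ± 0.15). The call of CDKN1C was lost without silk monoculture 2 or silk co-culture 3 (up to 0.0734) and that of GADD45A without silk co-culture 1 or 2 (up to 0.0703).

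Of 17 tested genes of the prostaglandin pathway, 2 were higher and 1 lower in silk co-cultures. PTGS1, the constitutive cyclooxygenase COX-1, had 863, 930 and 1294 normalized counts in silk co-cultures, against 150, 143 and 82.5 in silk monocultures (3.06 ± 0.24; limma adjusted p = 1.69e-06). PTGES, the inducible synthase that makes prostaglandin E2, had 445, 329 and 545 in co-cultures and 55.4, 44.8 and 43.7 in monocultures (3.15 ± 0.30; adjusted p = 1.08e-05). TBXAS1, thromboxane synthase, fell (-0.71 ± 0.17). The median change of the pathway's genes was 0.00. Fibroblasts had 1495 of PTGS1 and 172 of PTGES. The call of TBXAS1 was lost without silk monoculture 1 or 2 or any silk co-culture (up to 0.127).

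The growth factor signalling lists held few calls each, beside 2.91% called higher and 0.866% lower over all tested genes. In the insulin-like growth factor axis, 5 of 19 tested genes were higher and 0 lower, at a median of 0.41: IGFBP3, IGFBP5, IRS2, IGF2R and STC2. IGFBP3, a secreted binding protein, had 4872, 3777 and 4390 in silk co-cultures, against 772, 903 and 802 in silk monocultures (2.39 ± 0.17; limma adjusted p = 1.04e-06). IRS2, an adaptor of the insulin receptor, had 1075, 979 and 1217 in co-cultures and 412, 282 and 281 in monocultures (1.76 ± 0.19). Without silk monoculture 2 or 3 or any silk co-culture the list's count was 3, and the calls of IGFBP5 and IGF2R were lost (up to 0.0988 and 0.147).

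The transforming growth factor list had 6 of 41 genes higher and 1 lower. GREM1, a secreted antagonist of bone morphogenetic proteins, had 128, 139 and 160 in silk co-cultures and 8.003, 19.9 and 23.7 in silk monocultures (3.10 ± 0.41). The level in fibroblasts was 11067, and the excess was 1.13% of it. Over the 112 fibroblast-restricted genes the share was 0.0457% by the median and 0.118% by the sum. The part of fibroblast RNA in the GREM1 change was not tested. TGFBI, a matrix protein induced by TGF-beta, changed by 1.03 ± 0.18 (SE). SMAD9, ID2 and FSTL3 were also called higher, and SKIL, a repressor of SMAD signalling, was the 1 called lower. The list's higher calls numbered 3 without silk monoculture 3 or any 1 silk co-culture. The calls of SMAD9 and FSTL3 were lost without any 1 silk library (limma adjusted p up to 0.151 and 0.16); that of FSTL3 was lost without LN/PC co-culture 1 as well.

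In the Wnt list 4 of 35 genes were higher and 0 lower, beside 2.91% and 0.866% of all tested genes. FZD10, a Wnt receptor at 0 in fibroblasts, had 157, 120 and 134 in silk co-cultures, against 24.4, 21.2 and 19.4 in silk monocultures (2.61 ± 0.38; limma adjusted p = 0.000693). PORCN, which loads Wnt proteins with their lipid, changed by 1.24 ± 0.30 and the secreted modulators DKK3 and SFRP1 by 0.86 ± 0.18 and 0.75 ± 0.18. The Notch ligand gene JAG2 rose to 268, 236 and 246 in co-cultures, against 123, 93.4 and 76.0 in monocultures, the 1 call among 18 Notch genes. Of the EGF family, TGFA (1.02 ± 0.20), a ligand of the EGF receptor, and ERRFI1 (0.92 ± 0.17), a feedback inhibitor of it, rose among 15 tested. MET, the receptor of hepatocyte growth factor, had 3829, 3797 and 5455 in co-cultures and 2502, 2398 and 2615 in monocultures (0.78 ± 0.18). With PDGFRA and VEGFB it made the 3 higher calls among 25 genes of the FGF, HGF and PDGF pathways, of which 0 were left without silk monoculture 2 or silk co-culture 3 and 1 without silk monoculture 3. Without silk co-culture 3 the calls of PORCN, DKK3, SFRP1, TGFA and MET were lost (up to 0.198). Those of all but TGFA were also lost without silk monoculture 2, those of PORCN, SFRP1 and MET without silk monoculture 3, those of PORCN, DKK3 and SFRP1 without silk co-culture 1 and that of SFRP1 without silk co-culture 2.

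Immediate early and stress-induced transcription factors were higher for 5 of 32 genes and lower for 0, at a median of 0.52. KLF4, a factor of epithelial differentiation, had 229, 256 and 213 in silk co-cultures and 44.0, 18.9 and 38.9 in silk monocultures (2.82 ± 0.35; limma adjusted p = 0.000175). ATF3, a stress factor, had 91.0, 84.9 and 38.6 in co-cultures, against 16.3, 12.5 and 6.64 in monocultures (2.49 ± 0.43). KLF6 (1.43 ± 0.21), the phosphatase gene DUSP4 (1.20 ± 0.23) and JUND (0.72 ± 0.19) were the others. JUN, JUNB and MYC changed by -0.03, 0.11 and 0.36 and were not called. The list's count was 10 without LN/PC monoculture 2. JUND lost its call without any 1 silk library, LN/PC monoculture 1 or LN/PC co-culture 1 or 2 (up to 0.203).

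SIK1, a kinase induced by cyclic AMP, had 654, 447 and 455 in silk co-cultures, against 52.0, 54.2 and 58.8 in silk monocultures (3.19 ± 0.31; limma adjusted p = 1.05e-05). ENSG00000275993, listed by ID alone and named SIK1B by GENCODE, had 1033, 661 and 608 in co-cultures and 107, 69.3 and 75.5 in monocultures. It is a near-identical copy of SIK1, so how reads were split between the 2 is uncertain. Fibroblasts had 8.72 and 9.37 of them.

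Of 27 YAP and TEAD targets, 5 were called higher and 0 lower, at a median of 0.31: IGFBP3, ANKRD1, AXL, CCN1 and CRIM1. AXL, a receptor kinase, had 3457, 3232 and 4090 in silk co-cultures, against 1888, 1938 and 1800 in silk monocultures (0.93 ± 0.16; limma adjusted p = 0.00334). CCN2, the best known target, changed by 0.90 and was not called. The count was 2 without silk monoculture 3 or any 1 silk co-culture, 3 without silk monoculture 1 and 8 without LN/PC monoculture 2. The calls of ANKRD1, CCN1 and CRIM1 were lost without silk monoculture 3 or any silk co-culture (up to 0.112, 0.17 and 0.167), those of ANKRD1 and CCN1 also without silk monoculture 1, and those of CCN1 and CRIM1 without silk monoculture 2. That of CCN1 was lost too without LN/PC monoculture 1 or LN/PC co-culture 1 or 3.

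Matrix contact and proteolysis genes gave a further set of calls. Of 42 integrin, laminin and basement membrane genes, 6 were higher and 1 lower. ITGA3, the laminin-binding integrin chain, had 20377, 21982 and 23448 in silk co-cultures, against 10435, 11685 and 10231 in silk monocultures (1.02 ± 0.20; limma adjusted p = 0.0077). ITGB4, a hemidesmosome integrin, changed by 1.03 ± 0.20, LAMA1, a laminin chain, by 1.07 ± 0.28, and the matrix receptors CD44 and SDC4 by 0.81 ± 0.19 and 0.80 ± 0.20. ITGB6 was called lower (-0.79). DDR2, a collagen receptor at 10488 in fibroblasts, had 32.4, 6.69 and 36.7 in co-cultures and 2.22 to 3.87 in monocultures; its call was lost without silk co-culture 1 or 3 or silk monoculture 2 or 3 (up to 0.149). Without silk co-culture 3 the list's higher calls numbered 0 (limma adjusted p up to 0.218 over these genes and libraries), and without silk monoculture 2 or 3 the count was 2 and without silk co-culture 1 or 2 it was 3. The call of LAMA1 was lost without any 1 silk library.

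TIMP2, an inhibitor of matrix metalloproteinases, had 3884, 4279 and 4564 in silk co-cultures, against 1497, 1367 and 1348 in silk monocultures (1.59 ± 0.15; limma adjusted p = 8.11e-06). SERPINE2, an inhibitor of thrombin and plasminogen activators, had 4842, 4712 and 6199 in co-cultures and 1592, 1579 and 1768 in monocultures (1.66 ± 0.26). With TIMP3 they were among the 4 calls, all higher, of 35 matrix proteases and inhibitors. COL11A1, a fibrillar collagen chain, had 1281, 1293 and 1260 in co-cultures, against 625, 569 and 609 in monocultures (1.09 ± 0.16). Among 32 collagens, COL3A1, COL5A1 and COL11A1 were higher and COL26A1 and COL4A5 lower. Fibroblasts had 18304 of TIMP2 and 20605 of SERPINE2, and the excess in silk co-cultures was 15.5% and 17.5% of these levels. The protease list's count was 2 without silk monoculture 3 or silk co-culture 1 or 3, and the collagens called higher were 5 without silk co-culture 2 or LN/PC monoculture 2.

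The lists of transport and tubular identity were small and held few calls each. Over all tested genes, 3.78% were called. Of 33 nephron transcription factors, 0 were called by limma and 8 had an unadjusted p under 0.05. Of the 33, 2 lay higher and 7 lower without overlap, against 14.7% and 12.4% of all tested genes. Of 18 brush border and endocytosis genes, 1 was called higher and 0 lower, while 8 lay higher and 1 lower without overlap. PAX8, the renal lineage factor, had 3225, 3398 and 3784 normalized counts in silk co-cultures, against 5662, 4278 and 4035 in silk monocultures (-0.41 ± 0.18; limma adjusted p = 0.245). CDH16, kidney cadherin, had 6669 to 7435 in co-cultures and 5576 to 8711 in monocultures (-0.01 ± 0.19), and GGT1, a brush border peptidase, 1613 to 1851 and 1622 to 2389 (-0.22 ± 0.19). HAVCR1, the injury marker KIM-1, had 257 to 277 in co-cultures, against 262 to 402 in monocultures (-0.28 ± 0.52). SLC12A1, the sodium-potassium-chloride cotransporter of the loop of Henle, had 6061 to 6826 in co-cultures and 3298 to 6181 in monocultures (0.40 ± 0.21). AQP1, the water channel of the proximal tubule, had 4.67 to 25.5 in co-cultures and 6.82 to 14.7 in monocultures. LRP2, SLC34A1 and HNF4A were not analysed here.

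Among the panel of tubular genes, CLDN2 was the 1 called. Claudin-2 forms the cation pore of proximal tight junctions, and its gene had 350, 350 and 324 in silk co-cultures, against 822, 822 and 696 in silk monocultures (-1.19 ± 0.20; limma adjusted p = 0.00207). With LLGL2, a polarity gene (-0.59 ± 0.13), it made the 2 lower calls among 32 tight junction and polarity genes, with 0 higher. SLC34A2, a sodium phosphate cotransporter, had 153, 107 and 136 in co-cultures and 953, 537 and 202 in monocultures (-1.84 ± 0.43), a wide spread among the monocultures. KCNJ15, a potassium channel, fell (-0.82 ± 0.19). Of 23 proximal tubule transporters, SLC2A1 and KCNJ15 were the 2 called. MME, the brush border peptidase neprilysin, rose to 118, 61.4 and 153 in co-cultures, against 5.17, 15.1 and 7.96 in monocultures (3.44 ± 0.52); it was at 8684 in fibroblasts, and the excess was 1.17% of that. The calls of SLC34A2 and LLGL2 were lost without silk monoculture 2 or any silk co-culture, and that of SLC34A2 also without silk monoculture 1 (up to 0.0943 and 0.109); that of KCNJ15 was lost without silk monoculture 3 or silk co-culture 2 or 3 (up to 0.116).

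Among amino acid transporters, 3 of 22 were higher and 1 lower, at a median of 0.34. SLC7A5, the large neutral amino acid transporter LAT1, had 1844, 1586 and 1684 in silk co-cultures, against 985, 439 and 352 in silk monocultures (1.67 ± 0.28; limma adjusted p = 0.0021). Its heavy chain SLC3A2 rose with it (1.26 ± 0.30), as did the creatine transporter SLC6A8 (1.06 ± 0.21). SLC43A2, another neutral amino acid carrier, fell (-0.77 ± 0.19). Without silk co-culture 3 SLC7A5 was the 1 left. The calls of SLC3A2 and SLC43A2 were lost without silk monoculture 2 or any silk co-culture, that of SLC3A2 also without silk monoculture 3 and that of SLC43A2 without silk monoculture 1 (up to 0.135 and 0.15).

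Further called genes came from other lists, to be read beside 2.91% called higher and 0.866% lower over all tested genes. KMO, the kynurenine 3-monooxygenase, had 634, 626 and 839 in silk co-cultures, against 86.6, 167 and 141 in silk monocultures (2.44 ± 0.35; limma adjusted p = 0.000523), and 0.634 in fibroblasts; it was the 1 call among 6 kynurenine genes. CD55, which protects cells from complement, had 846, 832 and 919 in co-cultures and 254, 286 and 246 in monocultures (1.72 ± 0.23). INSIG1, which holds back cholesterol synthesis, changed by 1.35 ± 0.23 and was 1 of 2 calls among 25 genes of that pathway. AKAP12, a kinase scaffold, had 10129, 8124 and 10626 in co-cultures, against 1301, 1662 and 1851 in monocultures (2.59 ± 0.38). TNFSF10, the death ligand TRAIL, fell (-0.90 ± 0.15), and ADH6, an alcohol dehydrogenase, fell (-1.11 ± 0.20). In the list of inflammatory cytokines and NF-kB, 2 of 37 genes were higher, TNFAIP3 (2.00 ± 0.51) and CXCL1 (1.19 ± 0.30), and 2 lower, TNFSF10 and CXCL14. The call of TNFAIP3 was lost without any 1 silk library or LN/PC co-culture 1 or 2 (limma adjusted p up to 0.147). That of CXCL1 was lost without silk monoculture 1 or 2 or any silk co-culture (up to 0.129).

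In the circadian list PER1 and BHLHE41 were higher among 19, at a list median of 0.58 and 16 changes above 0. Among 56 primary cilium genes, the regulatory factors RFX2 (207, 168 and 235 in co-cultures, against 54.4, 82.1 and 78.8 in monocultures) and RFX3 (-1.15 ± 0.21) were the calls, in opposite directions, while 50 changes were below 0 at a median of -0.26 and 20 genes lay lower without overlap, 35.7% of the list. Over all tested genes 3.78% were called, 12.4% lay lower without overlap and the median was 0.00. The circadian count was 4 without silk monoculture 1, and the cilium genes called lower were 3 without LN/PC monoculture 3. The calls of PER1, BHLHE41 and RFX2 were lost without silk co-culture 1, those of PER1 and BHLHE41 without silk monoculture 2 or silk co-culture 2, those of BHLHE41 and RFX2 without silk co-culture 3 and that of BHLHE41 without silk monoculture 3 (limma adjusted p up to 0.0727, 0.157 and 0.0925).

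Of 48 lists, 10 had no call: nephron transcription factors, gluconeogenesis and fructose, fatty acid oxidation, mitochondrially encoded transcripts, nuclear respiratory chain subunits, ribosomal proteins, interferon response, metallothioneins, sodium pump and contractile genes. By limma 0 of their 281 members were called, 28 had an unadjusted p under 0.05, and the list medians lay between -0.18 and 0.29. The 56 ribosomal protein genes had a median of 0.10 and the 49 nuclear respiratory chain subunits one of 0.12. A missed threshold does not show that these genes did not differ.

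**Figure D4:**
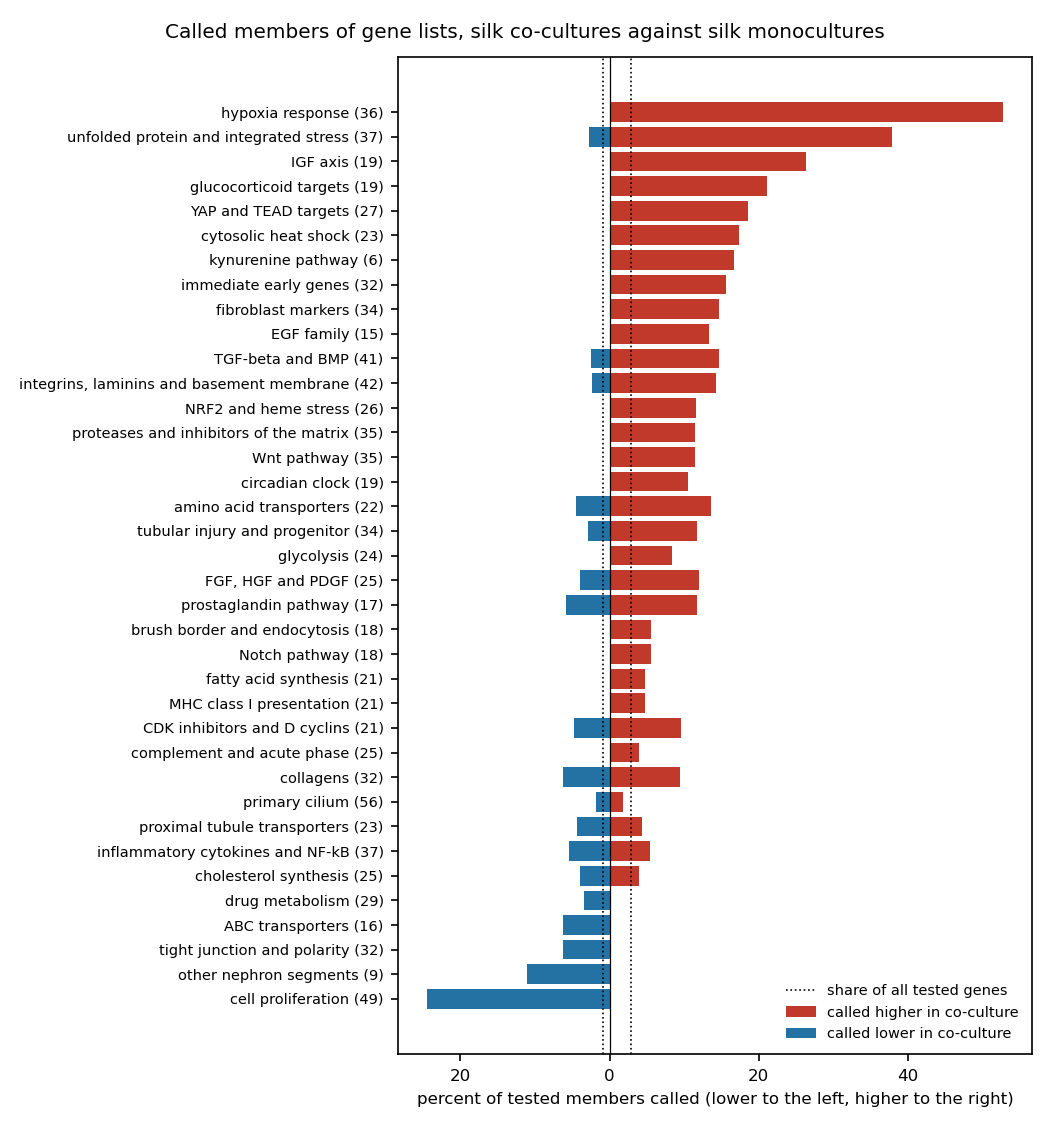
Percent of the tested members of each gene list (number tested in brackets) called higher, to the right in red, or lower, to the left in blue, in silk co-cultures against silk monocultures, for lists with a call and at least 5 tested members. Dotted lines give the share of all tested genes, 2.91% higher and 0.866% lower; hypoxia response leads with 19 of 36 and cell proliferation is at the bottom with 12 of 49 lower.

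Genes outside the lists completed the largest changes. PLCH2, a phospholipase C at 0 in fibroblasts, had 120, 82.0 and 159 normalized counts in silk co-cultures, against 16.0, 23.1 and 10.5 in silk monocultures (2.80 ± 0.50; limma adjusted p = 0.00364). CPA4, a carboxypeptidase, had 370, 296 and 509 in co-cultures and 66.1, 47.7 and 55.3 in monocultures (2.75 ± 0.37). HRK, a BH3-only activator of apoptosis, also at 0 in fibroblasts, had 80.2, 79.4 and 101 in co-cultures, against 10.1, 9.11 and 5.01 in monocultures (3.32 ± 0.49). In the other direction, the noncoding RNA gene LINC03104 fell to 33.5, 35.6 and 19.5 in co-cultures, against 144, 75.9 and 173 in monocultures (-2.08 ± 0.33). EPS8L1, a regulator of the actin cytoskeleton, fell by 1.46, and RASD1, a Ras-like protein induced by dexamethasone, by 1.43. PIMREG and CENPI, genes of mitosis and the centromere, CHD9NB and TMEM252 were lower as well, with changes between -1.65 (CHD9NB) and -1.48 (TMEM252). Without silk co-culture 3 the calls of these last 6 were lost (limma adjusted p up to 0.217), and those of PIMREG, CENPI, CHD9NB and TMEM252 also without silk monoculture 2 or silk co-culture 1 or 2. CHD9NB was lost too without silk monoculture 1, the other 3 without silk monoculture 3, CENPI without LN/PC co-culture 2, and PIMREG without LN/PC monoculture 1 or any LN/PC co-culture. RASD1 is on none of the lists. Of 19 tested glucocorticoid targets, 4 were called higher and 0 lower, at a median of 0.27.

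Whether the change was the same on the other membrane was tested as the difference between the co-culture effect on silk and that on LN/PC. On LN/PC 1126 genes (7.8%) were higher and 681 (4.72%) lower in co-cultures, which held 13.0% fibroblast RNA by the median and 20.9% by summed markers, against 0.0457% and 0.118% on silk. Of the 420 genes higher on silk, 91 were higher on LN/PC too, 21.7% of the silk list and 8.08% of the LN/PC list, and 23 were lower there. Of the 125 lower on silk, 19 were lower on LN/PC, 15.2% of the silk list and 2.79% of the LN/PC list, and 4 were higher. By the test of the difference, 1116 genes (7.73%) were called, 454 (3.15%) with a higher and 662 (4.59%) with a lower effect on silk. They included 220 of the 420 genes higher on silk, 198 of them with the higher effect on silk, and 32 of the 125 lower on silk, all 32 with the lower effect on silk. Silk changes enter this difference, so genes picked by them are not independent of it. The share of these calls with a higher effect on silk was 40.7% as deposited, 11.9% after scaling on epithelium-restricted genes and 78.5% after subtracting the fibroblast contribution, so no direction over all genes is given. The count was 725 without silk co-culture 3 and 728 without LN/PC co-culture 1.

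Several leading genes of silk were higher on both membranes. SLC2A3 changed by 3.25 ± 0.24 on silk and 2.70 ± 0.24 on LN/PC, a difference of 0.55 ± 0.34 (limma adjusted p = 0.371). For STC2 the changes were 3.06 and 2.77 (difference 0.28 ± 0.36; adjusted p = 0.696) and for PTGS1 3.06 and 3.23 (difference -0.17 ± 0.35; adjusted p = 0.824). These tests do not show that the effects were equal. In the hypoxia list as a whole 18 of 36 genes were called higher on LN/PC, against 19 on silk, at medians of 0.75 and 1.08. The difference between membranes was called for 10 of them, 6 with the higher and 4 with the lower effect on silk. Fibroblasts had 570 normalized counts of SLC2A3, 1070 of STC2 and 1495 of PTGS1, and the LN/PC co-cultures held 13.0% fibroblast RNA by the median. The part of that RNA in the changes and calls on LN/PC was not tested.

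Other genes changed on silk with a different effect on LN/PC. SLC2A1 changed by 2.20 on silk and -0.58 on LN/PC (difference 2.78 ± 0.27; limma adjusted p = 7.5e-06), and HK2 by 2.42 and -0.13 (difference 2.55 ± 0.27; adjusted p = 1.87e-05). UPP1 changed by 2.91 and -0.64 (difference 3.55 ± 0.32) and HSPA5 by 1.64 and 0.06 (difference 1.58 ± 0.31; adjusted p = 0.00363). TXNIP fell on both, by 2.16 on silk and 0.80 on LN/PC (difference -1.35 ± 0.33; adjusted p = 0.0181). Of 37 unfolded protein and integrated stress genes, the difference was called for 11, 7 with the higher and 4 with the lower effect on silk. Of 49 proliferation genes 12 were lower on silk, at a median of -0.91, against 1 on LN/PC, at a median of -0.12; the difference was called for 3, CDK1 among them (-1.70 ± 0.50; adjusted p = 0.0488).

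Among genes with a mean of at most 10 in fibroblasts, called on silk and in the difference, 6 had the largest effects in each direction. The higher effect on silk was in HSPA6 (8.94 ± 0.99), ENSG00000249341 (5.99 ± 0.80), KMO (3.87 ± 0.49), HRK (3.61 ± 0.69), FZD10 (3.30 ± 0.54) and CPA4 (2.98 ± 0.52). KMO was lower in LN/PC co-cultures than in LN/PC monocultures (-1.44 ± 0.35; limma adjusted p = 0.0111), as was ENSG00000249341 (-2.68 ± 0.57), so their directions were opposite on the 2 membranes. The lower effect on silk was in ADH6 (-1.95 ± 0.28), LINC02532 (-1.29 ± 0.26), the chemokine gene CXCL14 (-1.29 ± 0.30), CDKN1C (-1.18 ± 0.31), BBOX1 (-1.13 ± 0.27), the last enzyme of carnitine synthesis, and ENSG00000262198 (-1.11 ± 0.32). ADH6 was higher on LN/PC (0.84 ± 0.20) and lower on silk (-1.11 ± 0.20). The calls on silk of CXCL14 (up to 0.172) and BBOX1 (0.0503) were lost without silk co-culture 3, and that of CXCL14 also without silk monoculture 2 or 3 or silk co-culture 2.

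**Figure D5:**
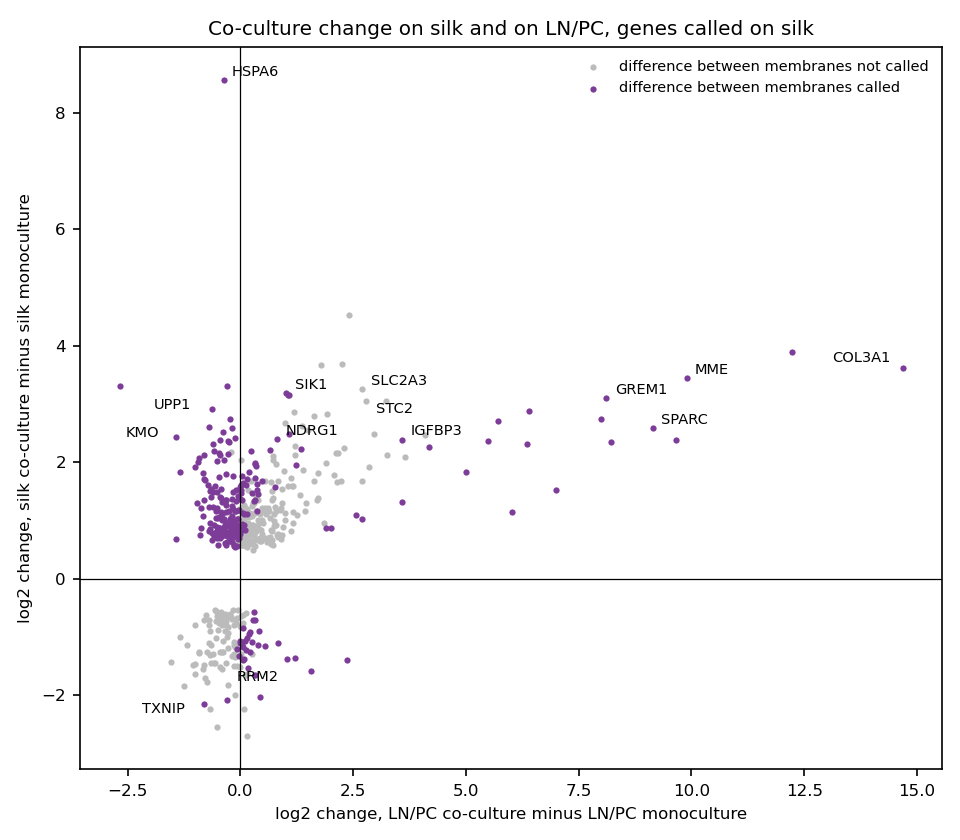
The 545 genes called on silk, by their log2 change on LN/PC (x axis, co-culture minus monoculture) and on silk (y axis, co-culture minus monoculture); purple marks genes whose difference between membranes was called. Fibroblast genes such as COL3A1 and SPARC lie far to the right (14.69 and 9.14 on LN/PC), while HSPA6, UPP1 and KMO lie above 2 on silk and below 0 on LN/PC.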

How the data were processed

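RNA from 15 libraries was sequenced after poly-A selection with a directional kit, per the labels' protocols. The authors deposited 1 table of log2 values with a common floor of 5.54, which have the form of a variance-stabilizing transformation; Salmon 1.10.3 and DESeq2 are named in the submitters' processing notes. Neither genome build nor annotation is given in the sources at hand. The values were inverted to normalized counts, whose median ratio to the mean library was 1.01 in each library over 13121 genes. The inversion and the test were tested on simulated data. Approximate reads and floors of 3 reads cover counting error only.

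Genes with at least 10 normalized counts in at least 3 of the 12 epithelial libraries were tested on log2(normalized count + 1) with limma 3.58.1 (R 4.3.3, trended spread, Benjamini-Hochberg, all 4 epithelial groups in 1 fit); fold changes of low genes are understated on that scale. The fibroblast share is the median, over 112 genes with at least 1000 counts in fibroblasts and 100 times the epithelial monocultures, of the excess over monocultures as a percent of the fibroblast level. Single values were compared by exact permutation (SciPy 1.17.1).

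Named genes were the 15 largest called changes per direction without overlap and with at least 100 counts in the higher group, up to 4 called members per list, a panel of tubular genes, and the 6 largest differences between membranes per direction; others were chosen after their values were seen. The comparison and the lists were chosen with earlier results of these data known. Promoters are from RefSeq (GRCh38.p14), for naming and sequence only. Most called genes are counted and not named, and some are not reported here.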

Additional observations from a re-analysis of the deposited data

Results flagged for a closer look

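The co-culture effect on silk differed from that on LN/PC for 1116 of 14433 genes by limma's test of the difference at an adjusted p under 0.05 (7.73%). Given here, as the effect on silk minus that on LN/PC in log2 units, are the genes with a called difference among those with the largest changes on silk, and the genes named for the size of the difference itself. All were called on silk, so they are not independent of this difference.

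The effect was higher on silk for HSPA6 (8.94), ENSG00000249341 (5.99), KMO (3.87), HRK (3.61), UPP1 (3.55), FZD10 (3.30), CPA4 (2.98), SIK1 (2.17), its near-identical copy ENSG00000275993 (2.12) and PTGES (2.06). HSPA6 was read in each silk co-culture and at 0 to 2.99 normalized counts in the LN/PC libraries. KMO went in opposite directions on the membranes, with a change of 2.44 on silk and -1.44 on LN/PC.

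It was lower on silk for ADH6 (-1.95), LINC03104 (-1.79), CDK1 (-1.70), TXNIP (-1.35), LINC02532 (-1.29), CXCL14 (-1.29), CDKN1C (-1.18), BBOX1 (-1.13) and ENSG00000262198 (-1.11). MME (-6.45) and GREM1 (-5.02) were higher in co-cultures on both membranes and more so on LN/PC, where fibroblast RNA made up 13.0% and these genes stand at 8684 and 11067 normalized counts in fibroblasts; the part of that RNA in the difference was not tested.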

How the results depend on the processing

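The count of 545 called genes became 346 (279 higher, 67 lower) with limma without a trend. Leaving out 1 library at a time gave 208 to 819 calls, 179 to 593 higher and 29 to 226 lower. The lower calls numbered 74 after scaling on epithelium-restricted genes and 71 after subtracting the fibroblast contribution from the co-cultures of both membranes. Scaling on epithelium-restricted genes and to the upper quartile moved the median change by 0.09 and -0.06. Of the 545 genes, 207 (38.0%) were called again without silk co-culture 3. The difference between membranes had 725 to 1357 calls with 1 library left out, and the fibroblast share was 0.118% from summed markers. No called gene named here reversed under any of these alternatives. LN/PC libraries were left out as an alternative chosen after seeing the data. The calls of single genes for the difference between membranes under these alternatives are not reported here.

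With the replicate block, 398 genes were called (319 higher, 79 lower), and 812 for the difference; the unfolded protein and integrated stress list had 7 higher calls in place of 14. The numbers are not shown to pair the samples: same-numbered silk libraries had correlations of deviations of -0.07, 0.07 and -0.06, and 1 of the 3 pairs correlated best with its own number. With 3 libraries a group and about 8.82 to 12.4 reads per silk library (in units of 1e+06), small changes of low genes may be missed.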
